A study of Mus musculus with 12 samples.

Results

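Interferon-stimulated genes and the genes that load peptides for antigen presentation were followed in mouse hearts early after ischemia and reperfusion. The set held 36 named genes, all 36 of which were found by symbol among the 33615 gene symbols measured, and all 36 passed the filter on low counts. Members were divided by the factor known to drive them. The IRF1-type class held 12 genes known to respond early to IRF1 or to interferon gamma, the type I interferon class held 23 genes known to follow type I interferon, and Irf2, a competitor of IRF1 at the same sites, stood in neither. Bulk RNA sequencing covered 12 libraries of heart tissue, 4 in each of 3 groups labelled 2 h. Sham hearts had the operation alone. I/R hearts had 30 min of ischemia followed by 2 h of reperfusion. I/R + ML264 hearts had the same injury and received the compound ML264, used as an inhibitor of the transcription factor KLF5. The labels give no strain, sex, age, dose or time of ML264, and no group had ML264 without injury. Whether the libraries are separate animals is not stated, and the p-values measure only the spread among these libraries. Y-linked transcripts differed among the libraries within I/R and within I/R + ML264, so neither of these groups came from 1 animal alone, whereas the 4 Sham libraries were alike in them.

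Type I interferons signal through their receptor to a complex that holds STAT2 and IRF9 and binds the interferon-stimulated response element (ISRE) in front of antiviral genes. Interferon gamma acts through the gamma-activated site (GAS) and raises IRF1, which then binds ISRE-like sites of immunoproteasome, peptide transporter and GTPase genes. IRF1 can also be raised directly by inflammatory signals such as NF-kB, and injured heart muscle can switch on interferon genes through sensors of displaced DNA and RNA.

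Promoters of 4 members are shown because they carry the motifs of the different routes or belong to genes on which the results turn. Each line holds the 250 bases before the RefSeq start site on the GRCm38.p6 build, 5′ to 3′ on the gene's own strand. Capitals mark matches on either strand to ISRE, searched as GAAA, any 2 bases and GAAA, or to GAS, searched as TTC, any 3 bases and GAA.
Irf1, chr11:53769764-53770013, plus strand, GAS in capitals: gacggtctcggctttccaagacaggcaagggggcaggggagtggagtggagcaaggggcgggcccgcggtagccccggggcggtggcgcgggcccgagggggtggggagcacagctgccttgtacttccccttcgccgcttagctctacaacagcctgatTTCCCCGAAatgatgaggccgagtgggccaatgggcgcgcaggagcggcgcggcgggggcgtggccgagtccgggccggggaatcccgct
Samhd1, chr2:157135097-157135346, minus strand, GAS in capitals: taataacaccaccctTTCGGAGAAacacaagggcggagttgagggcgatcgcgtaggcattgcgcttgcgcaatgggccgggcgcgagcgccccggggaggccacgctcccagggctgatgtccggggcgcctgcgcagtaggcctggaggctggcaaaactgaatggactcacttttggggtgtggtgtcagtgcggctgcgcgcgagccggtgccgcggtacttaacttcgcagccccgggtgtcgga
Igtp, chr11:58199306-58199555, plus strand, GAS and then ISRE in capitals: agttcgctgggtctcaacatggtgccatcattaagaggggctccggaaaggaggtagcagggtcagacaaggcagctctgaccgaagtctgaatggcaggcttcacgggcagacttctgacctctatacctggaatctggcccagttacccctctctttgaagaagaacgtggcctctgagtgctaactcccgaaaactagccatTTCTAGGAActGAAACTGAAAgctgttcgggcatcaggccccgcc
Isg15, chr4:156200819-156201068, minus strand, a run of 3 overlapping ISRE matches in capitals: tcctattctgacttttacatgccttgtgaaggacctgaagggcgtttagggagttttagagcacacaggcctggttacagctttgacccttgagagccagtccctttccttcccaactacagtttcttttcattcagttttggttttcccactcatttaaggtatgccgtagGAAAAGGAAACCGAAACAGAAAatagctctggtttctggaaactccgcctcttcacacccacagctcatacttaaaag

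Irf1 had its GAS match at position -90 from the start site and no ISRE match, whereas Isg15 had ISRE matches alone. Igtp held both, at -45 for GAS and -34 for ISRE, and Samhd1 held a GAS match at -235. RefSeq promoter windows of 300 bases (250 before and 50 after the start) were given for 28 of the 36 members. Of these 28 genes, 15 (53.6%) held an ISRE match on either strand, against 3.99% of the 27025 genes with a window. GAS matches stood in 10 of them (35.7%), against 9.55% of all genes. The NF-kB motif, searched as GGG, any 2 bases and TTTCC, stood in 2 of them, B2m and Irf2 (7.14%), against 1.89% of all genes. Only this form of the NF-kB motif was searched, so genes without it, Irf1 among them, may hold other forms. In Bst2 a GAS match overlapped an ISRE match. Each class held both motifs, ISRE in 5 of 10 IRF1-type and 9 of 17 type I genes, and GAS in 4 and 5. Dtx3l, Irf7, Irf9, Psmb9, Tap1, Trim25 and Xaf1 held none of the 3 motifs in their windows. A match is a description of these letters only.

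Library totals were 22.26 to 29.93 M (mega) estimated counts, and members summed to 8655 to 14305 counts in a library. Levels are CPM, counts per 1 M of the library after TMM scaling. The tissue label was checked with 6 cardiomyocyte markers, which summed to 19600 to 25000 CPM, and Myh6, the main heart myosin, alone had 9220 to 12400. Of the 6, 1 (Tnnt2) rose in I/R against Sham, where 4.58% of all genes were called higher. Ddx3y, a Y-linked gene, had 38.8 to 52 CPM in 8 libraries (4 Sham, 2 I/R and 2 I/R + ML264) and 0.106 to 0.484 in I/R libraries 1 and 4 and I/R + ML264 libraries 1 and 2. Arntl, a core clock gene, had 10.4 to 15.3 CPM in 3 libraries (Sham 2, Sham 3 and I/R 1) and 1.05 to 3.26 in the remaining 9. Both were tried as covariates. All libraries without Y-linked transcripts were from injured groups, so that difference cannot be fully told apart from the injury.

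I/R against Sham asked what the injury changed. Irf1 was 2.01-fold higher in I/R, and 3 genes of the type I class, Samhd1, Parp9 and Dtx3l, were 1.44-fold to 1.56-fold lower. No other member passed the test. Thus 4 of 36 members (11.1%) were called at an adjusted p under 0.05 by edgeR's quasi-likelihood test with Benjamini-Hochberg adjustment over 15952 genes, against 7.75% of all genes tested. Higher was 1 member against 4.58% of all genes called higher, and lower were 3 against 3.17%. With upper-quartile scaling the split was 0 higher and 4 lower. The median log2 fold change over all 36 was -0.05, with single genes from -1.10 to 1.02, against 0.00 over all genes. At an unadjusted p under 0.05 there were 12 members, 4 higher and 8 lower, against 23.2% of all genes. Groups did not overlap for 5 members (15.8% of all genes), of which Irf1 was higher (8.54% of all genes) and Parp9, Dtx3l, Eif2ak2 and Samhd1 were lower (7.25%).

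The transcripts of Ifnb1 and Ifng, the best known type I and type II interferons, and of Ifna1, Ifna4, Ifna5, Ifna6, Ifne and Ifnl3 had 0 counts in every library, which allows up to 0.1 to 0.135 CPM in each (3 counts, for counting error only). Ifna1, Ifna5, Ifna6, Ifnl2 and Ifnl3 share 44.8% to 88.3% of their 31-base sequence words with other genes, so their counts are uncertain. Ifna2, Ifnk and Ifnl2 had 6, 28 and 1 counts over all 12 libraries. All 6 receptor genes of the list were measured, and 0 of 6 were called in any comparison. Ifnar1, a subunit of the type I receptor, averaged 25.9 ± 1.24 CPM in Sham hearts, 21.9 ± 2.38 after I/R and 21.1 ± 1.81 with ML264 (SD, n = 4). Its log2 fold change in I/R against Sham was -0.24 ± 0.10 (SE, adjusted p = 0.151 by edgeR). Ifngr1, a subunit of the gamma receptor, had 27.8 ± 2.74, 27.1 ± 3.53 and 31.1 ± 5.51 CPM.

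Regulators among the members had a median log2 fold change of 0.44, and 1 of 6 was called. Irf1, on chr11:53770014-53778374, encodes the transcription factor that drives early interferon-gamma-type genes. It had 2.85, 5.36, 4.79 and 4.72 CPM in Sham libraries 1 to 4 and 6.45, 11.1, 6.6 and 11.6 CPM in I/R libraries 1 to 4. All 4 I/R libraries lay above all 4 Sham libraries, with libraries 2 and 4 the highest. Means were 4.43 ± 1.09 and 8.94 ± 2.81 CPM (SD, n = 4), a log2 fold change of 1.01 ± 0.29 (SE) with an adjusted p of 0.0479. The call stood near the threshold. It was lost without any 1 of the Sham libraries, I/R library 2 or 4, or I/R + ML264 library 1 or 3, with adjusted p from 0.0501 to 0.131 and log2 fold changes from 0.85 to 1.10. Among the 8 libraries with Y-linked transcripts alone, the log2 fold change was 0.99 ± 0.26 (adjusted p = 0.0631), and with upper-quartile factors, no filter, or Ddx3y or Arntl as a covariate the adjusted p was 0.0565, 0.0855, 0.136 and 0.206.

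Irf8, a partner of IRF1 best known from macrophages and dendritic cells, had the same size of difference without passing. Its levels were 1.58, 1.27, 1.39 and 0.669 CPM in Sham and 2.27, 2.91, 1.49 and 3.22 in I/R. I/R library 3 fell below Sham library 1, and the other 3 I/R libraries lay above all Sham libraries. The log2 fold change was 1.02 ± 0.32 (adjusted p = 0.0648). It passed with DESeq2 (0.0434) and without I/R library 3 (0.0433) or I/R + ML264 library 2 (0.0393), and under no other setting. Irf9, the DNA-binding subunit of the type I complex, had a log2 fold change of 0.55 ± 0.23 (adjusted p = 0.16). Irf7, the amplifier of type I interferon production, had 1.85, 0.833, 2.47 and 1.34 CPM in Sham and 1.83, 2.99, 1.61 and 1.68 in I/R. Its groups overlapped, and the log2 fold change was 0.32 ± 0.33 (adjusted p = 0.615). Stat2 and Irf2 had log2 fold changes of -0.10 and -0.15, with adjusted p of 0.793 and 0.602.

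**Figure D1:**
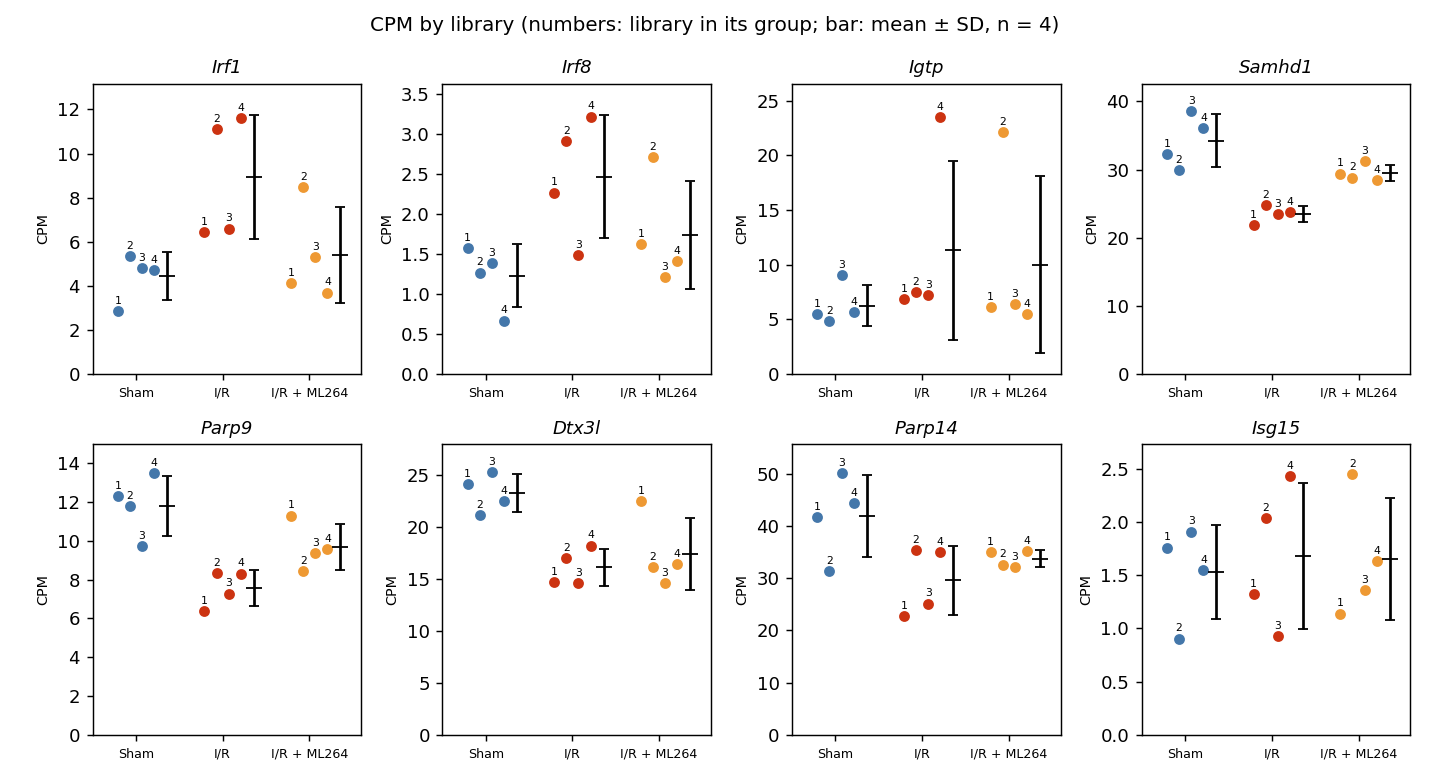
CPM (vertical axis, linear from 0) of 8 members in each of the 12 libraries, grouped as Sham, I/R and I/R + ML264 on the horizontal axis; points carry the library number, and bars give mean ± SD (n = 4). Irf1 was higher in all 4 I/R libraries than in any Sham library, Samhd1, Parp9 and Dtx3l were lower in all 4, and Igtp stood at 23.5 and 22.1 CPM in 1 library of each injured group.

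The 3 PARP and DTX genes had the median farthest from 0 of the 6 roles into which the members were grouped. Parp9 and Dtx3l encode partners in an ADP-ribosyltransferase and ubiquitin ligase complex of DNA repair and antiviral signalling, and Parp14 encodes a related enzyme nearby. All 3 had fold changes below 0 (median log2 fold change -0.53), and 2 of 3 fell. Parp9 had 12.3, 11.8, 9.73 and 13.5 CPM in Sham and 6.37, 8.33, 7.28 and 8.31 in I/R. No library overlapped, and the log2 fold change was -0.64 ± 0.14 (adjusted p = 0.0108). Dtx3l had 24.1, 21.1, 25.3 and 22.5 CPM in Sham and 14.7, 17, 14.6 and 18.2 in I/R. Its groups did not overlap either, with a log2 fold change of -0.53 ± 0.13 (adjusted p = 0.0204). These are not independent observations. Parp9 (chr16:35938470-35972605, plus strand) and Dtx3l (chr16:35926511-35939151, minus strand) overlap at their 5′ ends. Of their 31-base words, 8.6% and 9.7% occur in other genes, chiefly in each other. The libraries do not mark strand, so reads in the overlap cannot be told apart. The call of Dtx3l was lost without Sham library 3, I/R library 1 or I/R library 3 (adjusted p from 0.0547 to 0.0638) and with Arntl as a covariate (0.0636). That of Parp9 was lost in the 8 libraries with Y-linked transcripts, at -0.60 ± 0.16 and an adjusted p of 0.0585.

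Parp14 (chr16:35832874-35871544) had 41.6, 31.4, 50.1 and 44.4 CPM in Sham and 22.7, 35.4, 25.1 and 35 in I/R; it is given in full because it lies in the same locus and was chosen after its values were seen. Sham library 2 lay among the I/R libraries. The log2 fold change was -0.50 ± 0.15 (adjusted p = 0.06). It passed with DESeq2 (0.0226), upper-quartile factors (0.0351), limma voom (0.0427) and Arntl as a covariate (0.0436). It passed also without Sham library 2 (0.0214) or I/R library 2 (0.0422), and under no other setting.

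Of the 12 antiviral effectors, 1 was called, and the median log2 fold change was -0.14. Samhd1, an enzyme that breaks down the nucleotides retroviruses need, fell and had the smallest adjusted p of all 36 members. It lies on chr2:157097533-157135265. Its levels were 32.3, 29.9, 38.6 and 36.1 CPM in Sham and 21.9, 24.8, 23.5 and 23.7 in I/R. The 4 I/R libraries lay close together, all below the lowest Sham library. The log2 fold change was -0.54 ± 0.09 (adjusted p = 0.00236), and the call held without each of the 12 libraries in turn and under all 13 other settings, with log2 fold changes from -0.61 to -0.48.

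Classical type I antiviral genes did not move in one direction. Isg15, a ubiquitin-like modifier, had 1.76, 0.905, 1.91 and 1.55 CPM in Sham and 1.32, 2.04, 0.925 and 2.43 in I/R. Its log2 fold change was 0.14 ± 0.33 (adjusted p = 0.853), and the interval of 2 SE on each side ran from -0.53 to 0.80. Ifit1, which binds foreign RNA caps, had 1.58, 2.25, 1.95 and 1.83 CPM in Sham and 1.79, 3.5, 2.13 and 4.72 in I/R. Libraries 2 and 4 stood above every Sham library and libraries 1 and 3 did not, and the log2 fold change was 0.67 ± 0.31 (adjusted p = 0.203). Usp18, the protease that removes ISG15 and restrains the type I receptor, had the lowest fold change of all members. It had 0.995, 1.81, 3.33 and 2.36 CPM in Sham and 1.5, 0.511, 1.41 and 0.562 in I/R, and the log2 fold change was -1.10 ± 0.42 (adjusted p = 0.124). The other effectors, Ifit2, Ifit3, Mx1, Rsad2, Bst2, Xaf1, Ifi35 and Rtp4, had log2 fold changes between -0.40 and 0.32. Ifit3 is uncertain, with 61.8% of its words shared with other genes, chiefly Ifit3b.

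Sensors of foreign nucleic acid had a median log2 fold change of -0.15, and 0 of 5 passed. Eif2ak2, the RNA-activated kinase PKR that halts translation, had 41.8, 44.2, 51.1 and 44.5 CPM in Sham and 35.9, 40.7, 37.9 and 38.9 in I/R. Its groups did not overlap, but the log2 fold change of -0.24 ± 0.09 had an adjusted p of 0.124. These sums include transcripts not annotated as coding, and for Eif2ak2 the annotated coding transcript held 32.3% of the counts over all libraries. It averaged 0.14 ± 0.251 CPM in Sham hearts and 28.2 ± 18.8 after I/R, and the other transcripts 45.2 ± 4.17 and 10.1 ± 18.4. The split between transcripts varied widely among I/R libraries, where the coding transcript had 0.186 to 39.8 CPM, and was not tested. Coding transcripts held 30.8% of the counts of Parp9, 23.6% of Parp14 and 49.1% of Samhd1, so the falls of Parp9 and Samhd1 are those of all their transcripts together. Zbp1, a sensor of Z-form nucleic acid that can trigger necroptosis, had 0.769, 1.23, 2.95 and 1.41 CPM in Sham and 1.25, 0.708, 0.603 and 0.973 in I/R. Sham library 3 held the highest level and the groups overlapped, and the log2 fold change was -0.85 ± 0.40 (adjusted p = 0.21). Ddx58 and Ifih1, the cytosolic RNA sensors RIG-I and MDA5, and Trim25, which activates RIG-I, had log2 fold changes of -0.15, 0.12 and -0.07.

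The 4 interferon-inducible GTPases, which attack the membranes of intracellular parasites, all had fold changes above 0 (median log2 fold change 0.27), and 0 of 4 passed. Igtp, on chr11:58199556-58207591, had 5.47, 4.85, 9.03 and 5.64 CPM in Sham and 6.85, 7.51, 7.2 and 23.5 in I/R. I/R libraries 1 to 3 lay within the Sham range and library 4 far above it. The log2 fold change was 0.85 ± 0.58 (adjusted p = 0.439) with that library and 0.20 ± 0.50 without it. Library 4 lacked Y-linked transcripts, and so did library 1, which had 6.85 CPM. With Ddx3y as a covariate the log2 fold change was 0.26 ± 0.55, and among the 8 libraries with Y-linked transcripts it was 0.23 ± 0.23. Those 8 leave out library 4, so that value cannot separate Y-linked status from the 1 high library. Irgm1 had 7.65, 9.09, 8.58 and 8.81 CPM in Sham and 9.08, 9.63, 7.56 and 13.7 in I/R, again highest in library 4. Gbp2 and Gbp3 had log2 fold changes of 0.25 and 0.28.

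Antigen presentation genes, which cut, transport and display peptides on class I molecules, had a median log2 fold change of 0.13, and 0 of 6 passed. B2m, the light chain of class I molecules, had 55.2, 53.1, 87.7 and 59.6 CPM in Sham and 78.9, 67.5, 62 and 127 in I/R. Sham library 3 exceeded 3 of the 4 I/R libraries, and the log2 fold change was 0.39 ± 0.23 (adjusted p = 0.363). Tap1, a subunit of the peptide transporter, had 3.26, 4.78, 8.61 and 4.16 CPM in Sham and 6.52, 7.39, 6.31 and 10.1 in I/R. Its log2 fold change was 0.54 ± 0.41 (adjusted p = 0.488). Psmb8, an immunoproteasome subunit, had 1.18, 1.81, 1.95 and 1.48 CPM in Sham and 1.39, 1.73, 1.29 and 1.91 in I/R, with a log2 fold change of -0.03 ± 0.24 (adjusted p = 0.966). Psmb9, another such subunit, had 0.86, 0.688, 0.973 and 0.493 CPM in Sham and 0.513, 0.511, 0.282 and 0.262 in I/R. These are low levels, at most 28 counts in any of those 8 libraries. The log2 fold change was -0.93 ± 0.42 (adjusted p = 0.19). Psmb9 and Tap1 stand head to head on chromosome 17, with start sites 226 bases apart on opposite strands, and their annotated ends overlap, so reads there cannot be told apart. Tap2 and Nlrc5, the other transporter subunit and the class I transactivator, had log2 fold changes of -0.07 and 0.29.

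**Figure D2:**
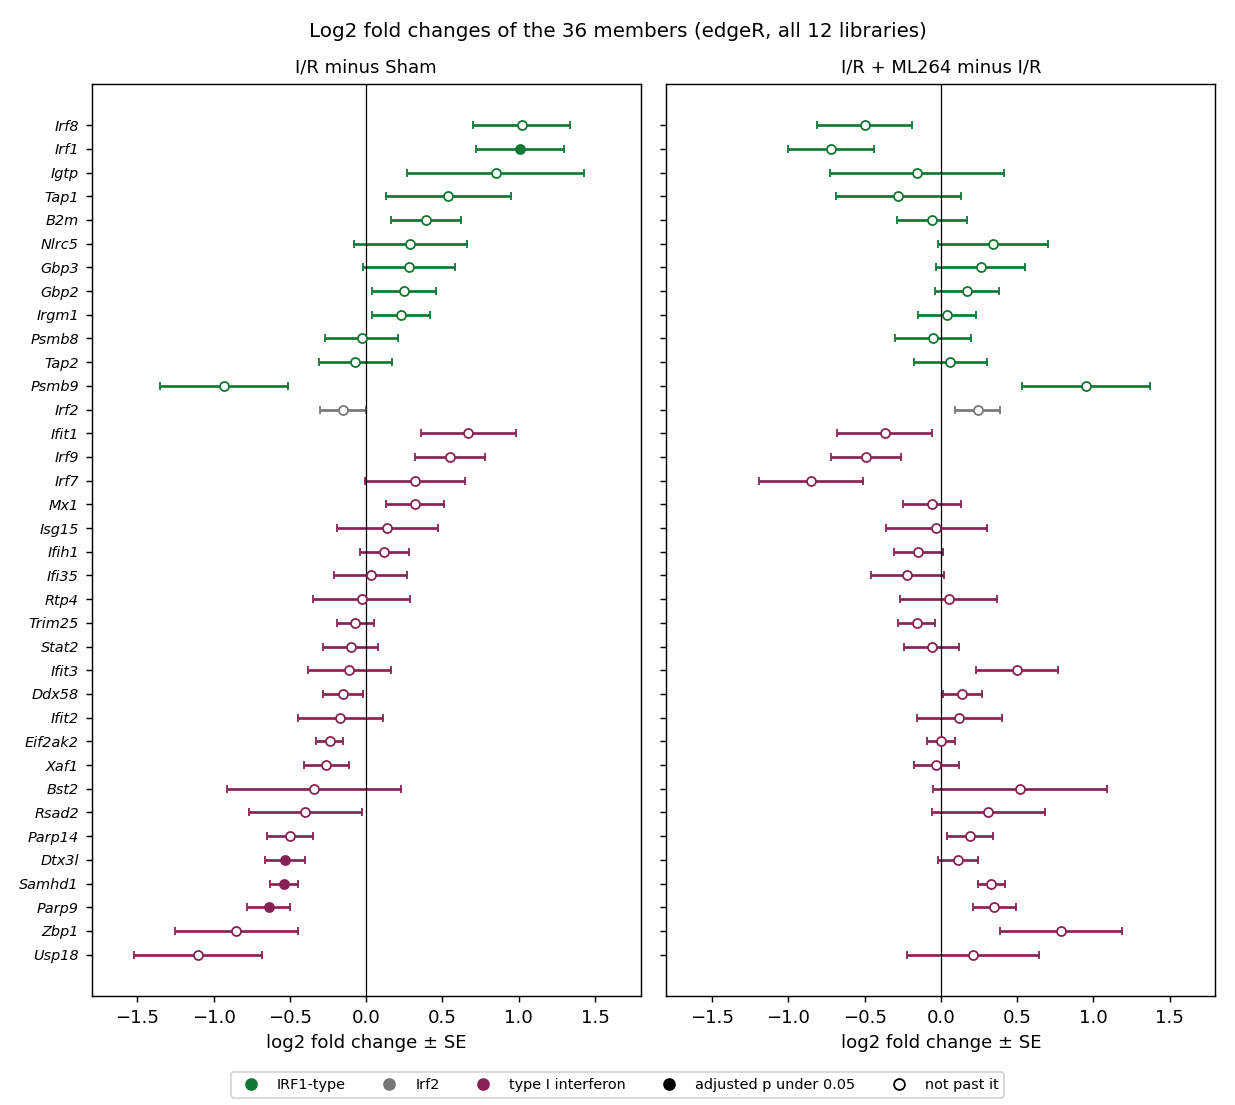
Log2 fold change ± SE (horizontal axis) of each of the 36 members in I/R against Sham (left) and I/R + ML264 against I/R (right), IRF1-type above, Irf2 between and type I interferon genes below, each class ordered by the left panel; filled points passed an adjusted p of 0.05. Irf1 was the single filled point above 0, Dtx3l, Samhd1 and Parp9 the 3 below it, and the right panel has none.

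By class, IRF1-type members had a median log2 fold change of 0.29, with 9 of 12 above 0, and type I members a median of -0.15, with 7 of 23 above 0 and 16 below. No test of a class was made. The IRF1-type median rested on I/R library 4: without it the value was 0.07, and it was 0.47 without Sham library 3. I/R library 4, like I/R library 1, lacked Y-linked transcripts. In the mean of log2 CPM centred per gene over the 12 libraries, the IRF1-type class stood at -0.34, -0.25, 0.19 and -0.36 in Sham and at -0.08, 0.20, -0.28 and 0.58 in I/R. The groups overlapped, and Sham library 3 stood above I/R libraries 1 and 3. The type I class stood at 0.02, -0.19, 0.40 and 0.13 in Sham and at -0.23, 0.05, -0.21 and 0.08 in I/R. Sham library 3 held the highest level of 10 members, 9 of them type I, whereas I/R library 4 and I/R + ML264 library 2 held the highest level of 8 each, 4 and 6 of them IRF1-type.

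**Figure D3:**
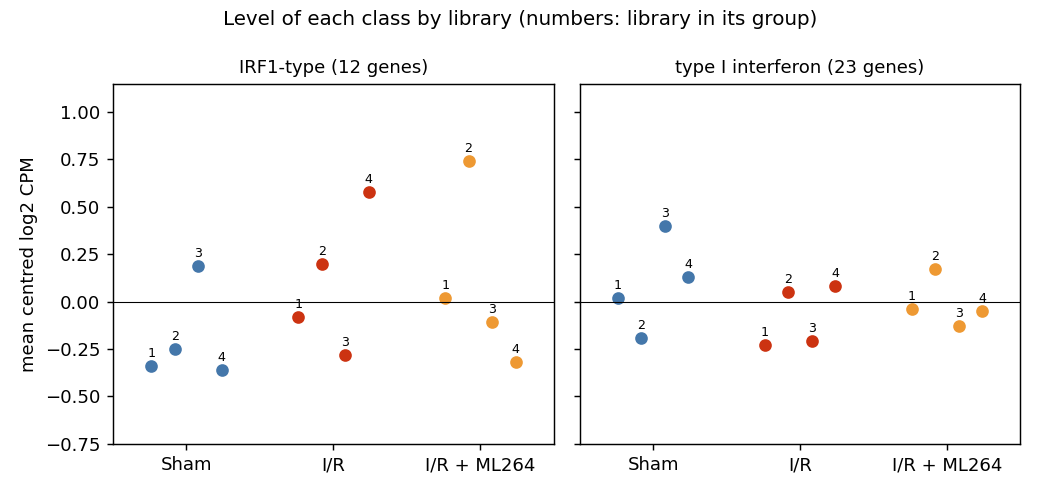
Mean centred log2 CPM (vertical axis) of the 12 IRF1-type genes (left) and the 23 type I interferon genes (right) in each library of the 3 groups (horizontal axis); each point is 1 library with its number, and 0 is the mean over all 12. I/R library 4 (0.58) and I/R + ML264 library 2 (0.74) were the highest IRF1-type points, and Sham library 3 (0.40) the highest type I point.

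Markers of other cell types also differed between groups. Summed CPM of the 4 neutrophil markers that passed the filter, of 7 listed, was 4.76 to 7.16 in Sham and 7.36, 8.61, 14 and 18.5 in I/R libraries 1 to 4, and 4.68, 17.8, 6.39 and 19.5 in I/R + ML264. None of the 4 was called in any comparison. In I/R against Sham, Retnlg and Mmp8 did not overlap and were higher (8.54% of all genes did so). They summed to 4 and 9 counts in Sham and 52 and 175 in I/R. S100a8, a defining neutrophil gene, was at 0 counts in all 4 Sham libraries and at 0.118 to 0.524 CPM in I/R. The libraries with the highest Igtp, I/R library 4 and I/R + ML264 library 2, had sums of 18.5 and 17.8 CPM. I/R + ML264 library 4, with the highest sum, had 5.51 CPM of Igtp. The 5 endothelial markers summed to 427 to 529 CPM in Sham hearts, 358 to 422 after I/R and 367 to 460 with ML264, and 2 of 5 (Kdr and Tek) fell in I/R against Sham. Kdr went from 155 to 90.3 CPM, whereas Pecam1 and Cdh5, which define the cell type, had log2 fold changes of 0.05 and 0.04. Dendritic cell markers summed to 28.9 to 33.5 CPM in Sham hearts, 21.7 to 24.8 after I/R and 25.9 to 28.2 with ML264. Of the 5 measured of 7 listed, 1 (Zbtb46) fell, and it alone averaged 18.4 CPM in Sham hearts. Clec9a and Siglech had log2 fold changes of -0.54 and -0.63 and were not called (adjusted p = 0.128 and 0.405 by edgeR). Flt3 and Xcr1 had log2 fold changes of 0.29 and -0.01. Monocyte and macrophage markers summed to 78.1 to 126, 85.7 to 98.1 and 76 to 96.7 CPM in Sham, I/R and I/R + ML264. Of the 8, 1 (Adgre1) fell. Ly6c2, a gene of inflammatory monocytes, had a log2 fold change of 0.67 (adjusted p = 0.344 by edgeR). Csf1r and Ccr2 had log2 fold changes of -0.43 and -0.3, and Mrc1, Cd68, C1qa and C1qb had values from -0.15 to 0.02. Of 8 T and NK cell markers 4 were measured and 0 called, with Nkg7 at 0 in 11 of 12 libraries. The 4 summed to 15.9 to 21.4 CPM in Sham hearts, 18.4 to 33.5 after I/R and 19.8 to 25.2 with ML264. Cd3d made up most of the sum, with 28.2 of the 33.5 CPM in I/R library 4. Cd3d and Cd3e had log2 fold changes of 0.61 and 0.27, and Cd4 and Cd8a of -0.25 and -0.50. Of 4 B cell markers only Ms4a1 was measured, at 0.617 to 1.36 CPM, and it was not called. The part of these cells in the changes of Samhd1, Parp9, Dtx3l and Irf1 and in the level of Igtp was not tested, and in bulk tissue fewer cells of a type and less RNA per cell cannot be told apart.

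Other genes of the pathway changed in both directions. Among 21 measured signalling genes 1 rose and 3 fell (19.0%, against 7.75% of all genes called), with a median log2 fold change of -0.16. Irf2bp2, a corepressor that binds IRF2, rose from 60.1 ± 16.3 to 109 ± 17.2 CPM (log2 fold change 0.86 ± 0.18, adjusted p = 0.0135). Irf4, a lymphocyte and macrophage factor, fell from 2.24 ± 0.403 to 0.529 ± 0.0775 CPM (log2 fold change -2.07 ± 0.39, adjusted p = 0.0055). Mb21d1, the DNA sensor cGAS, fell from 2 ± 0.228 to 0.894 ± 0.284 CPM (-1.16 ± 0.26, adjusted p = 0.0135). Irf3, which starts type I interferon transcription, fell from 6.99 ± 0.812 to 4.19 ± 0.878 CPM (-0.74 ± 0.18, adjusted p = 0.0204). In the 8 libraries with Y-linked transcripts alone, of which only 2 were I/R, the calls of Irf2bp2, Mb21d1 and Irf3 were lost. Their log2 fold changes there were 0.80, -1.07 and -0.62, so fewer libraries and Y-linked status cannot be told apart in this loss. Irf2bp2 was also lost with Ddx3y as a covariate, at 0.81. Irf3 was lost without Sham library 4 or I/R library 1, 3 or 4 too.

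Among 47 other type I genes 3 rose and 4 fell (14.9%, against the same 7.75%), and the median log2 fold change was -0.13. Ifi207, a member of the p200 family of DNA-binding proteins, had 11.7, 10.9, 10.4 and 8.6 CPM in Sham and 34, 37.5, 45.1 and 52.4 in I/R. That was the largest rise of the list, with a log2 fold change of 2.02 ± 0.22 (adjusted p = 0.000381). Its relative Ifi204 rose as well (0.85 ± 0.14, adjusted p = 0.00256), but 34.6% of its words are shared with other genes and its counts are uncertain. Ddx60, an RNA helicase of antiviral sensing, fell from 12.8 ± 2.03 to 6.73 ± 1.44 CPM (-0.93 ± 0.18, adjusted p = 0.00641). The call was lost in the 8 libraries with Y-linked transcripts (-0.87 ± 0.22, adjusted p = 0.0559). Sp100, a nuclear body protein, fell from 44 ± 4.19 to 29.4 ± 2.65 CPM (-0.58 ± 0.12, adjusted p = 0.00779). Among 21 other interferon gamma genes 1 rose and 1 fell, a share of 9.52% that is near the background, with a median of 0.14. Nos2, the inducible nitric oxide synthase, fell from 3.44 ± 0.151 to 1.57 ± 0.28 CPM (-1.13 ± 0.21, adjusted p = 0.00445). Casp4, the inflammatory caspase-11, rose from 6.4 ± 1.43 to 13.3 ± 4.7 CPM (1.05 ± 0.28, adjusted p = 0.0402), a call lost without any 1 of 8 of the 12 libraries (adjusted p from 0.0505 to 0.11). It was also lost with no filter (0.0877), with Ddx3y (0.114) or Arntl (0.215) as a covariate, and without I/R library 4 and I/R + ML264 library 2 together (0.0581). None of 21 further class I and 8 class II presentation genes was called, with medians of 0.08 and -0.07. All H2 genes of the class I list had log2 fold changes above 0, from 0.05 (H2-M3) to 0.95 (H2-Q6). Those below 0 were its other genes, the lowest Psmb10 at -0.53. H2-D1, H2-Q4, H2-Q6, H2-Q7, H2-T22, H2-T23, Tapbp, Psme2, Rfxank and H2-DMb1 share 25.8% to 67.4% of their words with other genes. Their counts are uncertain.

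I/R + ML264 against I/R asked what the inhibitor changed in injured hearts. No member was called by edgeR or by DESeq2, against 0.0502% of all genes by edgeR, and the smallest adjusted p was 0.191. At an unadjusted p under 0.05 there were 5 members, 3 higher and 2 lower, against 10.4% of all genes. The median log2 fold change was 0.05 over all members, 0.00 over the IRF1-type class and 0.05 over the type I class. With ML264, Samhd1 had 29.4, 28.8, 31.2 and 28.5 CPM, all above the 4 I/R libraries, with a log2 fold change of 0.33 ± 0.09 (adjusted p = 0.191). Parp9 had 11.3, 8.43, 9.35 and 9.57 CPM, also all above I/R, the lowest by little, and its log2 fold change was 0.35 ± 0.14 (adjusted p = 0.38). These were the 2 members whose groups did not overlap, both higher, against 2.54% of all genes. Dtx3l had 22.5, 16.1, 14.6 and 16.4 CPM, of which library 1 alone exceeded the I/R range. Samhd1, Parp9, Dtx3l and Irf1 were called against Sham with the same 4 I/R libraries, as were the called genes of the other lists. A difference back toward Sham levels can follow from that choice alone, and this was not tested.

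Irf1 had 4.11, 8.49, 5.3 and 3.7 CPM with ML264, and library 2 lay within the I/R range while the other 3 lay below it. Its log2 fold change was -0.72 ± 0.28 (adjusted p = 0.391), with an interval of 2 SE on each side from -1.29 to -0.15. Irf7 had 1.03, 1.68, 0.857 and 0.882 CPM, and its log2 fold change of -0.85 ± 0.34 was the lowest of the members (adjusted p = 0.38). Irf8 had 1.63, 2.71, 1.21 and 1.41 CPM (-0.50 ± 0.31, adjusted p = 0.611). Psmb9 had 0.993, 0.968, 0.662 and 0.397 CPM, the highest log2 fold change of the members at 0.95 ± 0.42 (adjusted p = 0.432). Zbp1 had 1.6, 2.39, 1.01 and 1.1 CPM (0.79 ± 0.40, adjusted p = 0.508). Isg15 had 1.14, 2.45, 1.36 and 1.63 CPM, and Ifit1 had 3.02, 2.52, 2.65 and 1.19, both overlapping I/R.

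Igtp had 6.14, 22.1, 6.39 and 5.51 CPM with ML264, so that 1 library held a level like that of I/R library 4. That library, number 2, also held 14.4 CPM of Irgm1, 11.7 of Tap1 and 8.23 of Nlrc5, the highest of all 12 libraries for each. It lacked Y-linked transcripts, as did I/R library 4 and also I/R + ML264 library 1, which had 6.14 CPM of Igtp. It had 91.9 CPM of B2m and 1.9 of Psmb8, against 68.7 to 82.3 and 1.32 to 1.49 in the other 3 of its group. Eif2ak2 and Usp18 had 40.4, 38.5, 32.1 and 42.6 and 0.816, 1.58, 1.48 and 0.706 CPM. In the other pathway lists 0 genes were called in this comparison, and Ifi207, at 13.9, 31.4, 23.8 and 24.3 CPM, had a log2 fold change of -0.85 ± 0.21 (adjusted p = 0.174). These counts are edgeR's: among the genes of the lists that are named here, DESeq2 called Ifi207 (-0.85, adjusted p = 0.00745) and Ddx60 (0.70, adjusted p = 0.0396). Without I/R + ML264 library 2, edgeR called Ifi207 and Sp100, with log2 fold changes of -1.03 and 0.52 and an adjusted p of 0.0426 for each.

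I/R + ML264 against Sham asked what still differed from uninjured hearts. Again no member was called by edgeR or DESeq2, against 0.288% of all genes by edgeR, and the smallest adjusted p, 0.169, was that of Dtx3l (log2 fold change -0.42 ± 0.13). At an unadjusted p under 0.05 there were 5 members, all lower (Usp18, Parp9, Dtx3l, Eif2ak2 and Samhd1), against 13.0% of all genes. Without I/R + ML264 library 1, Dtx3l passed at -0.57 ± 0.11 (adjusted p = 0.0357). Samhd1 had a log2 fold change of -0.22 ± 0.09 (adjusted p = 0.314), Parp9 of -0.29 ± 0.14 (0.381) and Irf1 of 0.29 ± 0.29 (0.728). Trim25 was the single member whose groups did not overlap, at 33.3 to 35.6 CPM against 36.8 to 44, lower, where 3.37% of all genes did so. Its log2 fold change was -0.24 ± 0.12 (adjusted p = 0.404). IRF1-type members had a median of 0.31, which was 0.02 without I/R + ML264 library 2, and type I members a median of -0.09. Of the other pathway genes 1 was called by edgeR, Ifi207, with 23.4 ± 7.19 CPM against 10.4 ± 1.32 (log2 fold change 1.17 ± 0.22, adjusted p = 0.0468), a call lost under most settings. It was lost without any 1 of 9 of the 12 libraries (the 4 Sham libraries, I/R libraries 2 and 3 and I/R + ML264 libraries 2, 3 and 4), with adjusted p from 0.0573 to 0.16. It was lost too with no filter (0.0877), limma voom (0.0895), the replicate block (0.107), the 2 groups alone (0.088), Ddx3y (0.129) or Arntl (0.218) as a covariate, and without I/R library 4 and I/R + ML264 library 2 together (0.0627). DESeq2 also called Nos2 (-0.74, adjusted p = 0.0457) and Ifi204 (0.68, adjusted p = 0.00216), the latter with uncertain counts. Ifi204 passed by edgeR as well with no filter (0.0335) and without library 1 of Sham, I/R or I/R + ML264 (0.0366, 0.0373 and 0.0402). This comparison shares its libraries with the other 2, so its values are set beside theirs and not counted as further evidence.

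**Figure D4:**
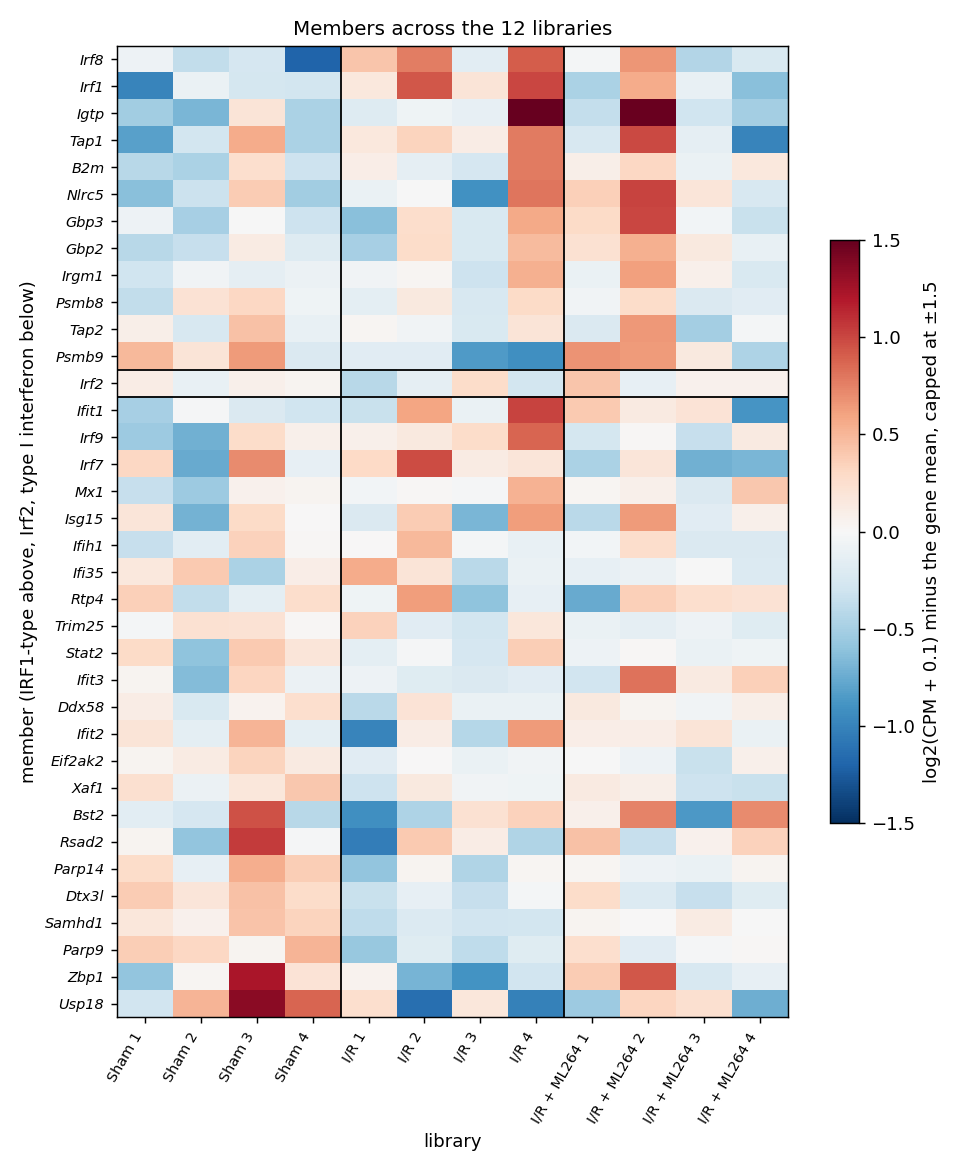
Log2(CPM + 0.1) of the 36 members (rows) minus each gene's mean over the 12 libraries (columns), coloured from blue (lower) to red (higher) and capped at 1.5 on either side; lines part the groups and the classes. The red runs of I/R library 4 and I/R + ML264 library 2 in the IRF1-type block, of Sham library 3 in the type I block, and the blue I/R cells of Parp14, Dtx3l, Samhd1 and Parp9 stand out.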

How the data were processed

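Total RNA of frozen heart tissue was converted to cDNA and sequenced from Nextera XT libraries, which do not mark strand, per the labels' protocols. The authors deposited 1 table that gives each transcript's estimated count in each library, without normalization or pooling. FastQC, kallisto and the GRCm38 (mm10) build were used per the submitters' processing notes, and versions and annotation were not given in the sources used here. Kallisto shares ambiguous reads out among transcripts, so genes with more than 25% of their 31-base words in other genes (GENCODE M21 transcripts) are called uncertain.

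Estimated counts of the deposited table were added up by symbol, then rounded to whole counts. After filterByExpr (minimum 10 counts) 15952 genes remained and 9601 with counts were removed. One edgeR 4.0.16 quasi-likelihood model, robust and with TMM scaling, in R 4.3.3 covered all 12 libraries, with Benjamini-Hochberg adjustment over all genes and calls at an adjusted p under 0.05. Class levels are means of log2 CPM centred per gene. Values in every library are given for called members, up to 2 members per role with the smallest p, and 8 genes fixed by name. Of each other pathway list, up to 4 called genes and Ifnb1, Ifng, Ifnar1 and Ifngr1 are named, and 1 further gene of that rule is not reported here. Members, classes, lists and tests were chosen with earlier results of these data known. Alternatives were DESeq2 1.42.0, RLE and upper-quartile factors, no filter, 1 CPM in 4 libraries, limma 3.58.1 voom, only the 2 groups compared, a replicate block, Ddx3y as a covariate, Y-linked libraries only, mitochondrially encoded genes left out, and each library left out. Leaving out I/R library 4 with I/R + ML264 library 2, and Arntl as a covariate, were added after the data were seen. The model was tested on simulated data. No pair of libraries held identical values, and the chi-square per gene between replicates was 7.36 to 70.0, above sampling noise. Promoter and start sites came from RefSeq (GRCm38.p6), gene coordinates from GENCODE M21.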

Additional observations from a re-analysis of the deposited data

Results flagged for a closer look

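In each group of 4 libraries, the gap between the highest or lowest library and its nearest neighbour was divided by the range of all 4. Of 108 groups of a member tested, 6 held a library far from the rest. Chance gives about 1 in 20 groups, which is near the share found, so the 6 are listed as descriptions only. Igtp gave 2 of the 6: I/R library 4 held 23.5 CPM against 6.85 to 7.51 in the other I/R libraries, and I/R + ML264 library 2 held 22.1 CPM against 5.51 to 6.39 in the others of its group. Mx1, an antiviral GTPase, stood at 7.15 CPM in I/R library 4 against 4.83 to 5.03. In I/R library 2, Irf7 was at 2.99 CPM against 1.61 to 1.83 and Ifih1 at 21.6 CPM against 14.3 to 15.4. Bst2, a tether that holds viruses at the cell surface, was at 0.799 CPM in Sham library 3 against 0.247 to 0.317, which is 23 counts against 7 or 8.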

How the results depend on the processing

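The number of members called in I/R against Sham was 4, and it was 2 in the 8 libraries with Y-linked transcripts alone (Dtx3l and Samhd1, both lower) and 6 with DESeq2, which added Irf8 and Parp14. Leaving out each library in turn gave 2 to 5, with 2 (Parp9 and Samhd1) without Sham library 3. In I/R + ML264 against I/R the number was 0 under every alternative run. In I/R + ML264 against Sham it was 0, and 0 to 1 when each library was left out, the 1 being Dtx3l without I/R + ML264 library 1. No named gene reversed a called direction. Over single named genes and other planned settings, 1584 values stayed on their side of the threshold, 17 dropped below it and 9 passed it. Class medians moved by less than the spread between libraries under each setting run. In I/R against Sham the IRF1-type median ranged from 0.07 to 0.47 and the type I median from -0.26 to -0.04. Samhd1 in I/R against Sham was the one member called under every setting run.

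With the replicate number as a block, 4 members were called in I/R against Sham and 0 in each other comparison. The numbers did not pair libraries: deviations of same-numbered libraries correlated at -0.112 to 0.093. Depth limits low members such as Bst2 and Psmb9, which had 4 to 30 counts in a library, so differences there were hard to detect.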
